A study of Mus musculus with 6 samples.

Results

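The collagen chain genes on the array, each encoding one polypeptide chain of a collagen, were compared between a pair of mouse hypothalamic cell lines. They were taken as all probe sets that the platform annotation names for one gene alone and whose symbol is Col, a number, the letter a and a number. The rule found 58 probe sets for 36 genes, of 20380 probe sets with 1 gene and 12393 genes in all. The RefSeq gene table of assembly GRCm38.p6 holds 44 such mouse genes, and the other 8 (Col6a4, Col6a5, Col6a6, Col8a2, Col23a1, Col24a1, Col27a1 and Col28a1) were not analysed here.

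The A_212 line came from adult mouse hypothalamus and the N_46 line from embryonic mouse hypothalamus. Both were immortalised by overexpressing a viral protein, SV40 T-antigen, and both are labelled as expressing Npy, the gene of neuropeptide Y. Each line was grown on 3 plates to 70% confluence in DMEM with 5% fetal bovine serum, and the RNA of each plate was read on 1 array of short oligonucleotide probes. Each line stands for its age of origin alone, and age and every other way in which these lines differ cannot be told apart. The plates are replicates of a line, so p-values measure only the spread between plates.

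A collagen is a trimer of chains wound into a triple helix whose repeat begins with glycine. Fibrillar collagens form the banded fibrils of connective tissue, type IV collagen forms the sheet-like network of basement membranes, and FACIT collagens (fibril-associated collagens with interrupted triple helices) sit on fibril surfaces. Other types form beaded filaments, anchoring fibrils or membrane-spanning proteins. In brain, basement membranes surround blood vessels and lie under the pial surface, and the tissue between neurons holds little fibrillar collagen, which is made mainly by meningeal and perivascular fibroblasts.

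The deposited values are on a log2 scale and were centred, with the median of every probe set at 0. They show differences between arrays and no level, so whether a chain was expressed in either line, or more than another chain, cannot be read. In each of the 58 probe sets, both middle values of the 6 are therefore mirror images about 0, which leaves differences as they were. Base 2 was inferred, and each fold rests on it. Differences are N_46 minus A_212, so a negative value is higher in A_212, with the standard error (SE) and adjusted p of limma over all 12393 genes (3 arrays per line).

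Collagen chain genes were more often higher in the adult-derived line than in the embryonic-derived line. Of the 36 chains, 17 were higher in A_212, 4 were higher in N_46 and 15 did not pass the test (limma, adjusted p under 0.05). Of all 12393 genes, 39.2% were called, 18.3% as higher in A_212 and 20.9% as higher in N_46, against 47.2% and 11.1% of the chains. All 7 chains called with a difference of at least 2-fold (Col3a1, Col11a1, Col6a1, Col6a2, Col6a3, Col4a5 and Col4a6) were higher in A_212. They are 19.4% of the chains, and 3.61% of all genes were called so in that direction. Of the chains, 0 were called so in favour of N_46, against 2.22% of all genes, and 5.83% of all genes were called so either way. For 24 chains (66.7%) the arrays of one line all lay above those of the other, as for 51.1% of all genes. A_212 was the higher line for 19 of these chains and N_46 for 5 (22.2% and 28.9% of all genes). The median difference was -0.22 over the chains and 0.06 over all genes tested. Without A_212 replicate 1 or without N_46 replicate 3, 2 of the 4 calls higher in N_46 were left, and the count higher in A_212 was 17 to 19 whichever array was left out. With RNA of whole cultures, fewer cells of a kind and less RNA per cell cannot be told apart.

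**Figure D1:**
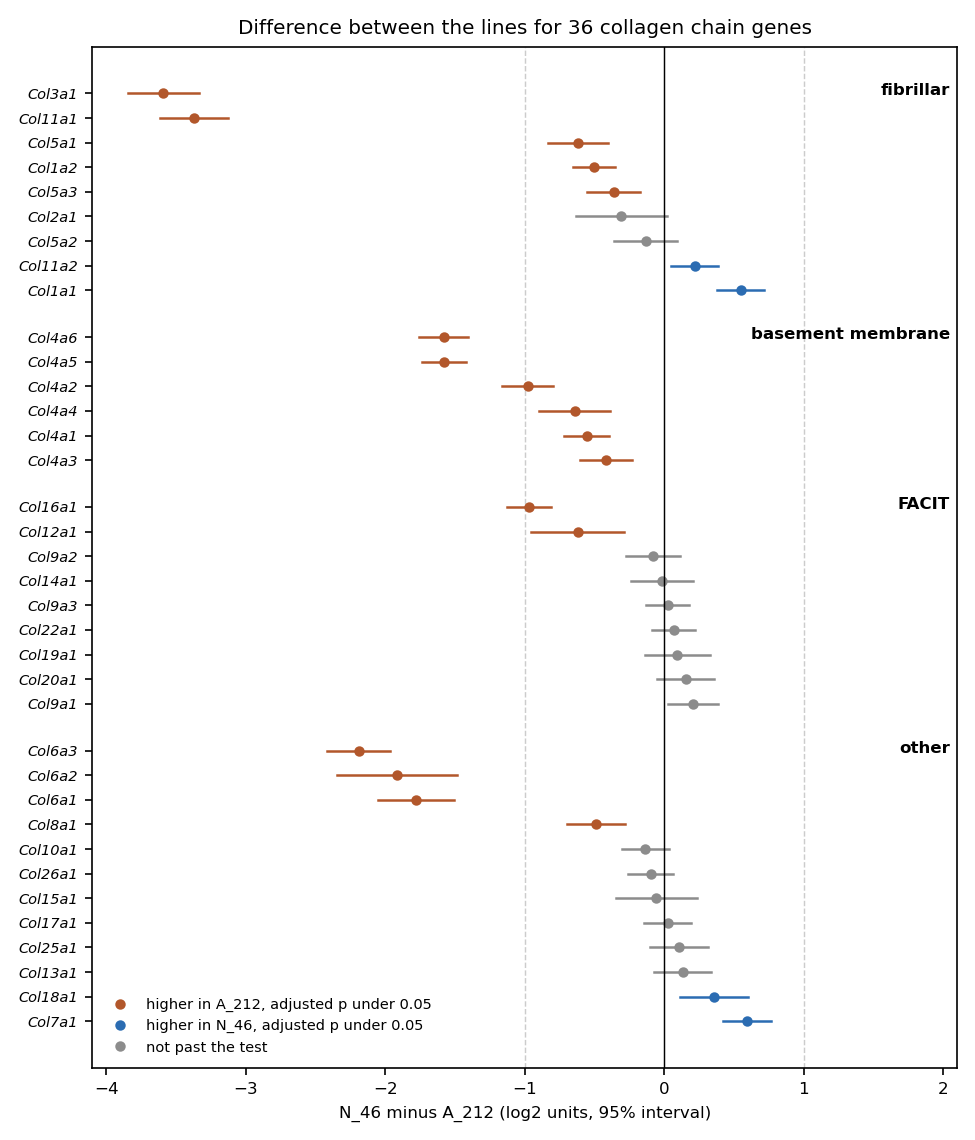
Difference between the lines (N_46 minus A_212, log2 units, points) with its 95% interval (lines) for the 36 collagen chain genes, ordered within each class. Dashed lines mark a 2-fold difference. The 6 basement membrane chains all lie left of 0, and Col3a1 (-3.59) and Col11a1 (-3.37) lie farthest from it.

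Among the 9 fibrillar chains, 5 were higher in A_212, 2 were higher in N_46 and 2 did not pass, with a median difference of -0.36. The calls are 55.6% of the class toward A_212 and 22.2% toward N_46, against 18.3% and 20.9% of all genes. The share toward N_46 is thus near that of all genes. The chains differed widely in size. Col3a1 encodes the single chain of type III collagen, a homotrimer of elastic tissues such as vessel walls and of early wound matrix. Its values were 1.604, 2.07 and 1.94 on the A_212 arrays and -1.67, -1.84 and -1.66 on the N_46 arrays. The lines lay far apart, with a difference of -3.59 ± 0.11 (SE, n = 3 arrays per line), 12.1-fold higher in A_212 (limma adjusted p = 4.2e-09). It ranked 35 of 12393 genes by difference in favour of A_212. Col11a1 encodes a chain of type XI collagen, a minor fibrillar collagen that sets fibril diameter in cartilage and is made by some fibroblasts. Its values were 1.505, 1.69 and 1.81 in A_212 and -1.48, -1.85 and -1.77 in N_46. This chain was 10.3-fold higher in A_212, at -3.37 ± 0.11 (adjusted p = 4.8e-09), and ranked 47.

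The bases before the start of these 2 genes are shown because they are the chains with the largest differences. Sequences are from RefSeq, build GRCm38.p6, printed 5′ to 3′ on the gene's strand, and end at the base before the gene's outermost start. Capitals mark matches on either strand to the TATA box letters TATAAA, to the letters CCAAT of the CCAAT box, or to the GC box letters GGGCGG. Col3a1 is at chr1:45311288-45311537 and Col11a1 at chr3:114030290-114030478, both on the plus strand.
Col3a1: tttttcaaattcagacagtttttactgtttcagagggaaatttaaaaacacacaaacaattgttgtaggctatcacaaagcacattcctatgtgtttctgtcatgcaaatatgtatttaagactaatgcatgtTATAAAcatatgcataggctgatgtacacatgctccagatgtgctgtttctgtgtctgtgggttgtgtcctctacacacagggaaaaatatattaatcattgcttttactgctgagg
Col11a1: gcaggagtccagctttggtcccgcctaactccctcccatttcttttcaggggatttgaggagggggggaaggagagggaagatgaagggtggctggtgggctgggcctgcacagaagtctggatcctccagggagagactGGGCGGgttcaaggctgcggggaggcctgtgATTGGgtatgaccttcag
The stretch shown for Col3a1 held 1 TATAAA, with 111 bases between it and the start, and neither of the other motifs. That shown for Col11a1 held 1 CCAAT, read on the opposite strand, and 1 GGGCGG.

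The chains of type I collagen, the main collagen of skin, bone and tendon, differed in opposite directions. Type I collagen is mostly a heterotrimer of a pair of Col1a1 chains and one Col1a2 chain. Col1a1 was at -0.23, -0.17 and -0.25 in A_212 and at 0.44, 0.26 and 0.30 in N_46. Col1a2 was at 0.20, 0.28 and 0.25 in A_212 and at -0.23, -0.25 and -0.29 in N_46. Neither gene's values overlapped between the lines. Col1a1 was 1.46-fold higher in N_46 (0.55 ± 0.08, limma adjusted p = 0.00020), and Col1a2 was 1.42-fold higher in A_212 (-0.50 ± 0.07, adjusted p = 0.00018). Both probe sets of Col1a1 were called, at 0.61 and 0.48. Of the Col1a2 probe sets, 1 was called at -0.79, and the other, of a kind that can match several transcripts, was at -0.21 (adjusted p = 0.052).

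**Figure D2:**
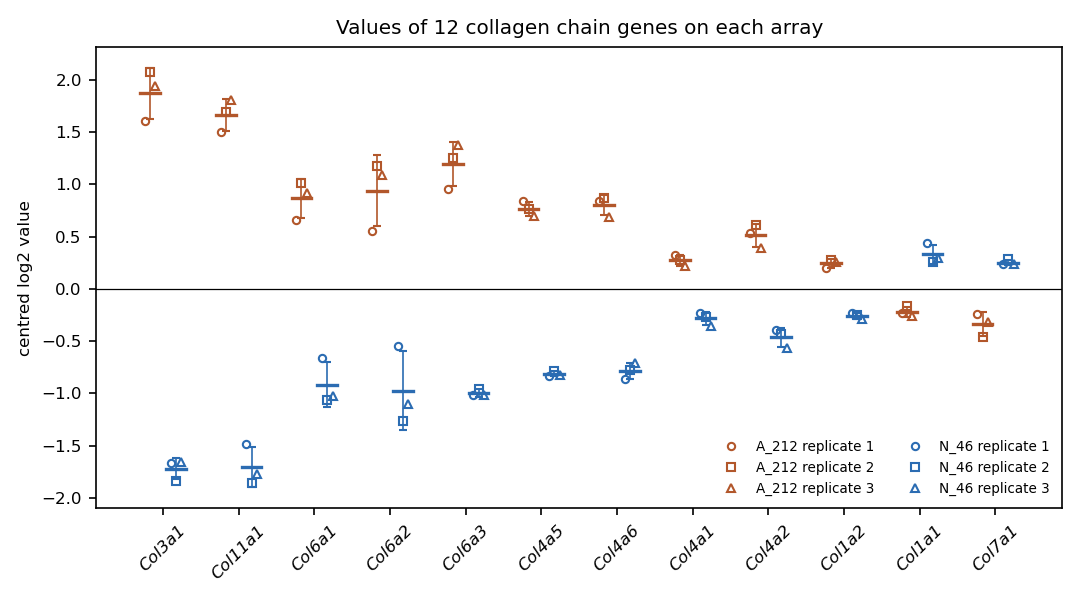
Centred log2 values of 12 collagen chain genes on each of the 6 arrays (symbols by replicate), with the mean (bar) and SD (error bar) of 3 arrays per line. Col1a1 and Col7a1 are higher in N_46 and the other 10 are higher in A_212, and no gene's values overlap between the lines.

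Type V collagen is a minor fibrillar collagen that starts fibril formation and is built into type I fibrils. Col5a1 was at 0.23, 0.28 and 0.38 in A_212 and at -0.12, -0.38 and -0.47 in N_46, a difference of -0.62 ± 0.10 (limma adjusted p = 0.00047). Its 3 probe sets ranged from -0.93 to -0.29. Col5a3 was at 0.22, 0.04 and 0.25 against -0.28, -0.21 and -0.08, a difference of -0.36 ± 0.09 (adjusted p = 0.0064). One of its probe sets gave -0.63 and the other -0.09, and the latter was not called. Col5a2 was at -0.03, 0.10 and 0.10 in A_212 and at 0.16, -0.20 and -0.19 in N_46, and its lines overlapped. Its difference of -0.13 ± 0.10 did not pass (95% interval -0.36 to 0.09, adjusted p = 0.33). N_46 replicate 1 lay above the A_212 arrays for Col5a2, and without it the difference was -0.25 and passed (adjusted p = 0.034). The 2 probe sets of Col5a2 had opposite signs, at -0.37 and 0.10. Col5a2 lies next to Col3a1 in gene order on chromosome 1.

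Col2a1, the chain of cartilage type II collagen, ranged from -0.10 to 0.31 in A_212 and from -0.47 to 0.13 in N_46, and its difference of -0.31 ± 0.15 did not pass (adjusted p = 0.13). It too passed without N_46 replicate 1 (-0.48, adjusted p = 0.012), and it passed with array weights (-0.37, 0.040). Col11a2, the second type XI chain, was at -0.15, -0.09 and -0.03 in A_212 and at 0.15, 0.03 and 0.21 in N_46. Its difference of 0.22 ± 0.08 was close to the threshold (limma adjusted p = 0.044), and the call was lost without A_212 replicate 1 (0.13), A_212 replicate 2 (0.091), N_46 replicate 1 (0.093) or N_46 replicate 3 (0.18).

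All 6 type IV chains were higher in A_212. Type IV collagen is made as trimers of Col4a1 with Col4a2 in nearly all basement membranes, and of Col4a3, Col4a4 and Col4a5, or of Col4a5 and Col4a6, in some. The 6 differences ran from -1.58 to -0.42 with a median of -0.81, and the lines did not overlap for any of them. Of all genes, 18.3% were called as higher in A_212, and 22.2% had values apart with A_212 higher. Leaving out any 1 array kept all 6 calls.

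Col4a5 and Col4a6 had the largest type IV differences. Col4a5 was at 0.84, 0.77 and 0.70 in A_212 and at -0.83, -0.78 and -0.82 in N_46. Col4a6 was at 0.84, 0.87 and 0.69 against -0.86, -0.78 and -0.71. The arrays of each line lay close together for both chains. Col4a5 differed by -1.58 ± 0.07 (limma adjusted p = 4.2e-08) and Col4a6 by -1.58 ± 0.08 (adjusted p = 1.1e-07), so that Col4a5 was 2.98-fold and Col4a6 2.99-fold higher in A_212. All 4 probe sets of this pair were called, between -1.68 and -1.47. These genes are neighbours on the X chromosome and are read away from each other, and the transcript starts in the RefSeq promoter table are 1343 bases apart. The bases before each gene's outermost end, which lies upstream of that transcript start, are shown because the pair shares this stretch of genome and moved by like amounts. They are chrX:141475169-141475369 on the plus strand for Col4a5 and chrX:141474096-141474326 on the minus strand for Col4a6, both between the 2 genes.
Col4a5: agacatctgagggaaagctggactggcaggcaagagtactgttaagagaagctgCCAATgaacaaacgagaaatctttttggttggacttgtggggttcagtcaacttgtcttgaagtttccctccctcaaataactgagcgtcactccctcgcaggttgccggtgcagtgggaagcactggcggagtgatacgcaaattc
Col4a6: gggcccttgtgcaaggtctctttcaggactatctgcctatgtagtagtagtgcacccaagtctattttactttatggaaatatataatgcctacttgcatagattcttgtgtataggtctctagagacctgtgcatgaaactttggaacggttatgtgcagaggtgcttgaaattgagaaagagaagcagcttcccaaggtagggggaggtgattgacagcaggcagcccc
The stretch shown for Col4a5 held 1 CCAAT. That shown for Col4a6 held 0 matches to the 3 motifs.

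Col4a1 and Col4a2 encode the chains of the common basement membrane trimer. Col4a1 was at 0.32, 0.28 and 0.22 in A_212 and at -0.23, -0.26 and -0.35 in N_46, 1.47-fold higher in A_212 (-0.56 ± 0.07, limma adjusted p = 0.00013). Col4a2 was at 0.53, 0.61 and 0.40 against -0.40, -0.43 and -0.57, 1.97-fold higher in A_212 (-0.98 ± 0.08, adjusted p = 6.0e-06). The pair lies head to head on chromosome 8, and the RefSeq transcript starts on opposite strands are 21 bases apart. Although these genes share a promoter region, their differences were unequal (Col4a1 minus Col4a2 0.42 ± 0.07, adjusted p = 0.00094). Probe sets of a single gene spanned up to 0.71 (Col3a1), so this gap cannot be told from a gap between probe sets.

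Col4a3 and Col4a4, neighbours on chromosome 1 whose chains serve the basement membranes of kidney glomerulus, cochlea and eye, had smaller differences than Col4a5. Col4a3 was at 0.40, 0.13 and 0.23 in A_212 and between -0.19 and -0.13 in N_46, a difference of -0.42 ± 0.08 (limma adjusted p = 0.0024). Col4a4 was at 0.66, 0.32 and 0.18 in A_212 and between -0.35 and -0.18 in N_46, a difference of -0.64 ± 0.11 (adjusted p = 0.0012). A_212 replicate 1 had the highest value of both genes, and both stayed called without it.

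The chains of type VI collagen were the third group with large differences. Type VI collagen forms beaded microfilaments around cells, next to basement membranes, from one chain each of Col6a1, Col6a2 and Col6a3. Col6a1 was at 0.66, 1.02 and 0.92 in A_212 and at -0.66, -1.06 and -1.02 in N_46. Col6a2 was at 0.55, 1.18 and 1.09 against -0.55, -1.26 and -1.10. Col6a3 was at 0.96, 1.26 and 1.37 against -1.02, -0.96 and -1.02. Replicate 1 of both lines lay nearest to 0 for Col6a1 and Col6a2, and A_212 replicate 1 was the lowest A_212 array for Col6a3. The lines stayed apart for all 3 chains. Col6a1 was 3.44-fold higher in A_212 (-1.78 ± 0.12, limma adjusted p = 1.3e-06). Col6a2 was 3.77-fold higher (-1.91 ± 0.19, adjusted p = 2.3e-05), and its 2 probe sets, both of kinds that can match several transcripts, were at -1.92 and -1.90. Col6a3 was 4.57-fold higher (-2.19 ± 0.10, adjusted p = 5.7e-08). Col6a1 and Col6a2 are neighbours on chromosome 10, whereas Col6a3 lies on chromosome 1.

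The bases before the start of Col6a3 are shown as those of the type VI chain with the largest difference, at chr1:90844002-90844221 on the minus strand.
Col6a3: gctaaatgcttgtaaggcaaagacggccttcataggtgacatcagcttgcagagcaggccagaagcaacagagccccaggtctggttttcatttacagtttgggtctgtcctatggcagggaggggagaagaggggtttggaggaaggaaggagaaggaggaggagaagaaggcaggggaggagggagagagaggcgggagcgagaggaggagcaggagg
It held 0 matches to the 3 motifs searched.

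Among the remaining chains, Col7a1 had the largest difference in favour of N_46 of all 36. It encodes type VII collagen, which forms the anchoring fibrils under epithelia. Its values were -0.24, -0.46 and -0.32 in A_212 and 0.24, 0.28 and 0.24 in N_46, 1.51-fold higher in N_46 (0.59 ± 0.08, limma adjusted p = 0.00015). Col18a1, whose product is a basement membrane collagen that carries heparan sulfate and releases endostatin, was at -0.49, -0.07 and -0.09 in A_212 and at 0.09, 0.12 and 0.20 in N_46. A_212 replicate 1 was the lowest of its values. The difference of 0.36 ± 0.11 passed (adjusted p = 0.026), and the call was lost without A_212 replicate 1 (0.22, adjusted p = 0.064), N_46 replicate 2 (0.36, 0.054) or N_46 replicate 3 (0.32, 0.078). Col15a1, of the same multiplexin family, differed by -0.06 ± 0.13 (95% interval -0.35 to 0.24, adjusted p = 0.76).

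Col8a1, a short network-forming chain of vessel walls and corneal endothelium, was at 0.08, 0.31 and 0.39 in A_212 and at -0.18, -0.16 and -0.35 in N_46, 1.405-fold higher in A_212 (-0.49 ± 0.09, limma adjusted p = 0.0019). Col10a1, the related chain of hypertrophic cartilage, differed by -0.13 ± 0.08 and did not pass (adjusted p = 0.19). The 3 transmembrane chains measured, Col13a1 (0.13), Col17a1 (0.03) and Col25a1 (0.11), did not pass, nor did Col26a1 (-0.10). Their 95% intervals lay between -0.26 and 0.34, so a 2-fold difference in array signal in either direction lay outside each of them. Whether these chains were expressed cannot be read, so the intervals set no such bound on the transcripts.

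Most FACIT chains did not pass the test. Of 9 measured, 2 were higher in A_212, 0 were higher in N_46 and 7 did not pass, with a median difference of 0.03 and a mean below 0. Called either way, the 2 chains are 22.2% of the class, against 39.2% of all genes. By direction, 22.2% were higher in A_212, near the 18.3% of all genes, and 0 were higher in N_46, against 20.9%. These differences in share were not tested. Col16a1, which encodes a chain found with fibrils and near basement membranes, was at 0.42, 0.52 and 0.52 in A_212 and at -0.42, -0.51 and -0.50 in N_46. It was 1.96-fold higher in A_212 (-0.97 ± 0.07, limma adjusted p = 2.0e-06). Col12a1, whose product sits on type I fibrils, was at 0.07, 0.79 and 0.39 in A_212 and at -0.07, -0.23 and -0.31 in N_46. The A_212 arrays were widely spread for Col12a1, and its difference was -0.62 ± 0.15 (adjusted p = 0.0075). Col16a1 and Col12a1 were each read by 1 probe set, of a kind that can match several transcripts.

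The type IX chains of cartilage differed little between the lines. Col9a1 was at -0.22, -0.21 and 0.01 in A_212 and at 0.10, 0.03 and 0.08 in N_46. Its lines did not overlap, and its difference of 0.21 ± 0.08 did not pass (limma adjusted p = 0.067). It passed without A_212 replicate 3 (0.28, adjusted p = 0.012) and with array weights (0.23, 0.019). Col9a2 differed by -0.08 and Col9a3 by 0.03. Of the rest, Col14a1 differed by -0.02, Col19a1 by 0.10, Col20a1 by 0.15 and Col22a1 by 0.07, with adjusted p-values from 0.22 to 0.91.

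Chains that assemble in one trimer, or belong to one type, were compared with each other on each array. The question was whether the difference between the lines was the same for both chains. Of 18 chain pairs, 10 differed (limma on the within-array difference, Benjamini-Hochberg over all genes and pairs together). Each chain is read by its own probe sets, and the SE holds only the spread between plates. Probe sets of a single gene spanned up to 0.71 (Col3a1). Gaps between chains smaller than that cannot be told from gaps between probe sets. Col1a1 exceeded Col1a2 by 1.05 ± 0.07 more in N_46 than in A_212 (95% interval 0.89 to 1.21, adjusted p = 1.4e-06), with the pair at -0.43, -0.45 and -0.51 in A_212 and at 0.67, 0.51 and 0.58 in N_46. Col11a1 differed from Col11a2 by -3.59 ± 0.10 (adjusted p = 1.2e-09) and from Col2a1, a chain of the cartilage trimer of type XI, by -3.06 ± 0.09 (3.0e-09). Col5a1 differed from Col5a2 by -0.49 ± 0.07 (0.00029).

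Within type IV, Col4a5 differed from both its partners of the specialised trimer, as Col4a3 minus Col4a5 was 1.16 ± 0.08 (limma adjusted p = 1.2e-06) and Col4a4 minus Col4a5 was 0.94 ± 0.10 (2.7e-05). Col4a5 and Col4a6 were the closest of the 18 pairs, at 0.00 ± 0.07 with a 95% interval from -0.16 to 0.17. Within type VI, Col6a1 minus Col6a2 was 0.13 ± 0.10 (95% interval -0.10 to 0.36) and Col6a2 minus Col6a3 was 0.28 ± 0.17 (-0.10 to 0.65), and neither pair passed. Without N_46 replicate 2 the latter was 0.44 and passed (adjusted p = 0.048). Col6a1 minus Col6a3 was 0.41 ± 0.12 (adjusted p = 0.017), and this call was lost without A_212 replicate 3 (0.35, adjusted p = 0.066) and with trended eBayes (0.41, 0.058). Col11a2 minus Col2a1 (0.53, adjusted p = 0.015) was lost without A_212 replicate 3 (0.455, 0.067). Col9a1 minus Col9a2 (0.29, 0.020) was lost without A_212 replicate 2 (0.071), N_46 replicate 1 (0.063) or N_46 replicate 3 (0.091). Another 3 pairs did not pass here but did with array weights, which called 13 pairs, and without 1 array. Col4a3 minus Col4a4 (0.22, adjusted p = 0.079) and Col9a1 minus Col9a3 (0.18, 0.084) passed without A_212 replicate 3, at 0.32 (0.011) and 0.23 (0.036), and with array weights at 0.24 (0.024) and 0.20 (0.040). Col5a1 minus Col5a3 (-0.26, 0.14) passed without N_46 replicate 1, at -0.41 (0.010), and with array weights, at -0.35 (0.033). Col5a2 minus Col5a3 was 0.23 (95% interval -0.07 to 0.53) and Col9a2 minus Col9a3 was -0.11 (-0.27 to 0.06), and neither passed.

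**Figure D3:**
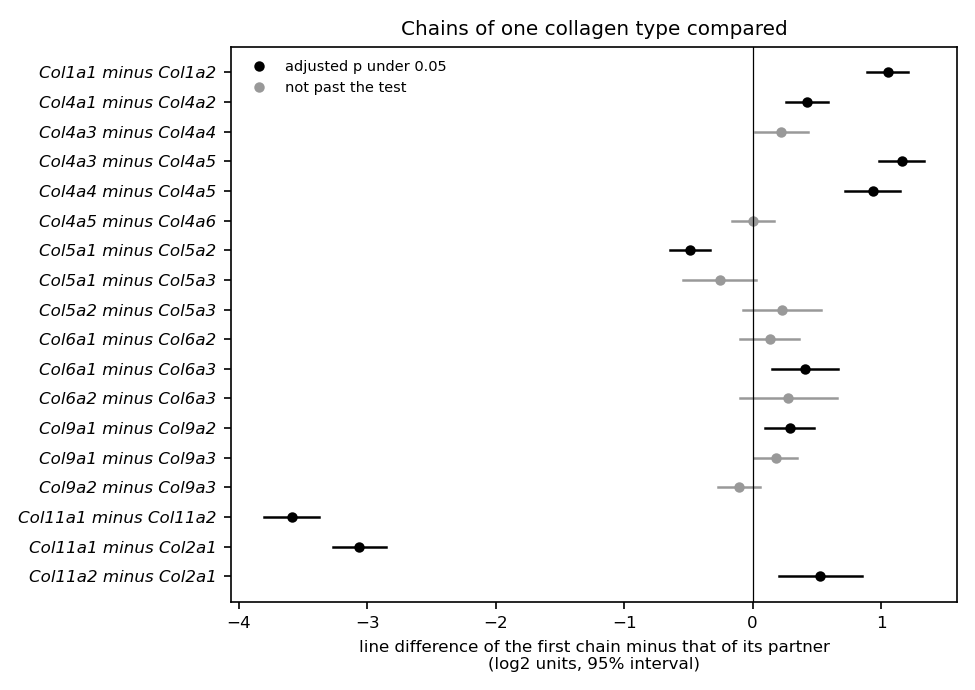
Difference between the lines of one chain minus that of its partner (log2 units, points) with the 95% interval (lines) for 18 pairs of chains of one collagen type, 3 arrays per line. The pair of Col4a5 and Col4a6 lies on 0 (0.00), and Col1a1 minus Col1a2 lies at 1.05.

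Gene order and chain differences did not run together in every case. Neighbours with differences of like size were Col4a5 with Col4a6 (-1.58 each) and Col6a1 with Col6a2 (-1.78 and -1.91). Neighbours of unlike size were Col3a1 with Col5a2 (-3.59 and -0.13), and Col18a1 (0.36), which lies 2 coding genes from Col6a1, went the other way. The other neighbouring pairs were Col4a1 with Col4a2 (-0.56 and -0.98), Col4a4 with Col4a3 (-0.64 and -0.42) and Col9a1 with Col19a1 (0.21 and 0.10). Promoter windows were found in RefSeq for 27 of the 36 genes (30 windows). These windows run to the start of a RefSeq transcript, which for Col11a1, Col6a3, Col4a5 and Col4a6 lies inside the gene's outermost end, so they hold bases beyond the stretches printed above. Over the 250 bases before each transcript start, TATAAA was found in 5 of these 30 windows, CCAAT in 12 and GGGCGG in 16, on either strand. Among all 32851 windows, TATAAA was found in 12.4%, CCAAT in 33.8% and GGGCGG in 32.7%. None of these motifs holds another, and a match is a run of letters and no binding site. Of the 7 chains called at 2-fold, Col3a1 alone held TATAAA, Col11a1 and Col4a5 held CCAAT, Col11a1, Col6a2, Col4a5 and Col4a6 held GGGCGG, and Col6a1 and Col6a3 held none of the 3. The GGGCGG matches of Col4a5 and Col4a6 lie outside the bases printed for them, and of the 2 matches of Col11a1 the printed bases hold 1.

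Probe sets of a chain mostly went the same way. Of the 19 chains with more than 1 probe set, 4 had probe sets of both signs, which were Col5a2, Col9a3, Col14a1 and Col19a1, and none of these 4 was called. The largest span within a gene was 0.71 for Col3a1, whose probe sets were at -3.95 and -3.24. Spans above 0.50 were also found for Col5a1 (0.64), Col1a2 (0.58), Col11a1 (0.54) and Col5a3 (0.54). Of the 58 probe sets, 17 were of kinds that can match several transcripts or genes.

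**Figure D4:**
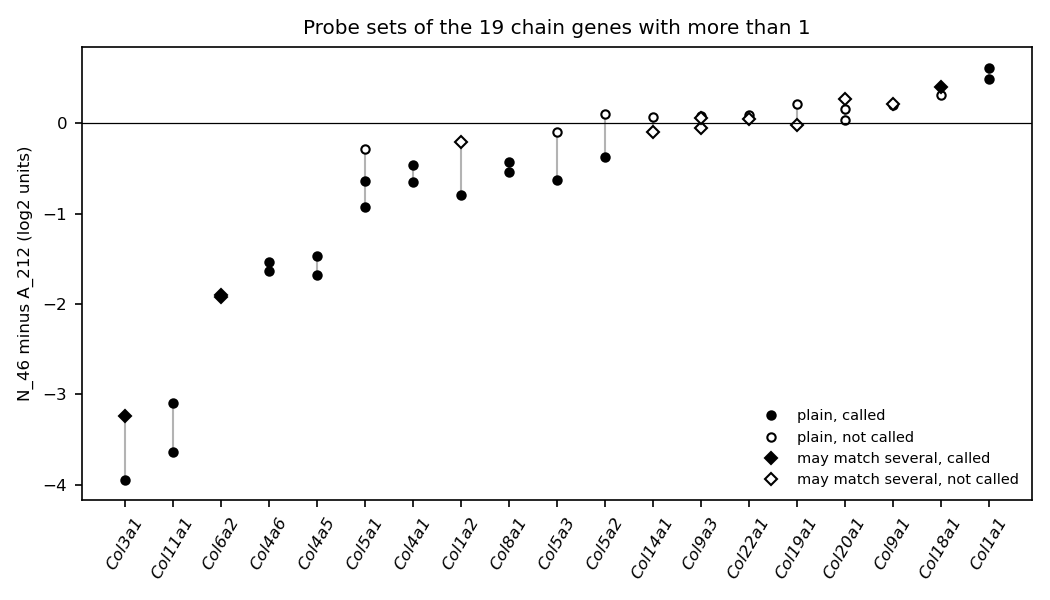
Difference between the lines (N_46 minus A_212, log2 units) of each probe set of the 19 chain genes with more than 1, joined by a grey line per gene. Filled symbols passed the test over all probe sets, and diamonds are probe sets of kinds that can match several transcripts. Only Col5a2, Col9a3, Col14a1 and Col19a1 cross 0.

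Genes that modify, export, process or bind collagen were more often higher in A_212, and their share higher in N_46 was near that of all genes. Over 4 lists, 40 genes were measured. Of these, 16 were higher in A_212, 8 were higher in N_46 and 16 did not pass, so 60% were called against 39.2% of all genes. By direction, 40% were higher in A_212 and 20% in N_46, against 18.3% and 20.9% of all genes. The counts of each list below stand beside the same shares of all genes. The median difference was -0.09. Without A_212 replicate 1 or without N_46 replicate 2, the count higher in N_46 fell from 8 to 5.

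Enzymes and partners of collagen hydroxylation and glycosylation gave 6 genes higher in A_212, 3 higher in N_46 and 3 not past the test, of 12 measured. Plod2, the lysyl hydroxylase that acts on the ends of collagen chains, was at 0.58, 0.77 and 0.92 in A_212 and at -0.63, -0.64 and -0.76 in N_46, 2.70-fold higher in A_212 (-1.43 ± 0.09, limma adjusted p = 7.9e-07). The prolyl 3-hydroxylase gene P3h1 (-0.75), the collagen galactosyltransferase gene Colgalt1 (-0.58) and the prolyl 4-hydroxylase subunit gene P4ha2 (-0.48) were also higher in A_212. P3h4 (0.36), P4ha1 (0.28), the other prolyl 4-hydroxylase catalytic subunit measured, and Plod3 (0.23) were higher in N_46. Leaving out 1 array ended the call of P4ha1 in 4 of 6 settings and that of Plod3 in 5 of 6, with adjusted p-values up to 0.082 and 0.11.

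Folding and export genes gave 4 higher in A_212, 2 higher in N_46 and 7 not past the test, of 13 measured. Fkbp7, a prolyl isomerase of the endoplasmic reticulum, was 2.24-fold higher in A_212 (-1.16 ± 0.10, limma adjusted p = 5.2e-06). The vesicle coat genes Sec23a (-0.42) and Sec24d (-0.27) and the isomerase gene Fkbp9 (-0.28) were higher in A_212. Sec24d was lost without A_212 replicate 2 or N_46 replicate 2, and Fkbp9 without these or N_46 replicate 3. Creb3l1, a transcription factor that drives secretory and collagen genes (0.58), and the export factor gene Ctage5 (0.35) were higher in N_46. Serpinh1, the collagen-specific chaperone, named here after its value was seen, differed by -0.01 ± 0.07 (95% interval -0.16 to 0.14, adjusted p = 0.93).

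Propeptide cleavage and fibril assembly genes gave 2 higher in A_212, 3 higher in N_46 and 4 not past the test, of 9 measured. The pair of procollagen C-proteinase enhancers, which speed removal of the C-propeptide, differed in opposite directions. Pcolce2 was at -1.99, -1.80 and -2.11 in A_212 and at 1.80, 1.82 and 1.88 in N_46, 13.9-fold higher in N_46 (3.80 ± 0.09, limma adjusted p = 4.3e-10). Pcolce was at 0.28, 0.41 and 0.25 against -0.25, -0.46 and -0.45, 1.62-fold higher in A_212 (-0.70 ± 0.08, adjusted p = 7.7e-05). Bmp1, the C-proteinase itself (0.44), was higher in N_46, and Sparc, a collagen-binding matrix protein (-0.71), was higher in A_212. Mep1b, a meprin subunit gene (0.27), was called as higher in N_46 and was lost in 4 of the 6 settings that left out 1 array.

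Of 6 collagen receptor genes measured, 4 were higher in A_212, 0 were higher in N_46 and 2 did not pass. Mrc2, the endocytic receptor that takes up collagen for degradation, was at 0.63, 0.59 and 0.57 in A_212 and at -0.62, -0.65 and -0.63 in N_46, 2.35-fold higher in A_212 (-1.23 ± 0.07, limma adjusted p = 1.9e-07). Ddr2, a receptor tyrosine kinase for fibrillar collagen, was 2.002-fold higher in A_212 (-1.002 ± 0.08, adjusted p = 5.0e-06). The integrin subunit gene Itgb1 (-0.23) and Ddr1 (-0.23) were called, with probe sets of both signs for each, and their calls were lost with plain probe sets alone (adjusted p = 0.13 for Itgb1 and 0.056 for Ddr1). Leaving out 1 array ended the call of Itgb1 in 4 of 6 settings and that of Ddr1 in 5 of 6, with adjusted p-values up to 0.14 and 0.13.

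**Figure D5:**
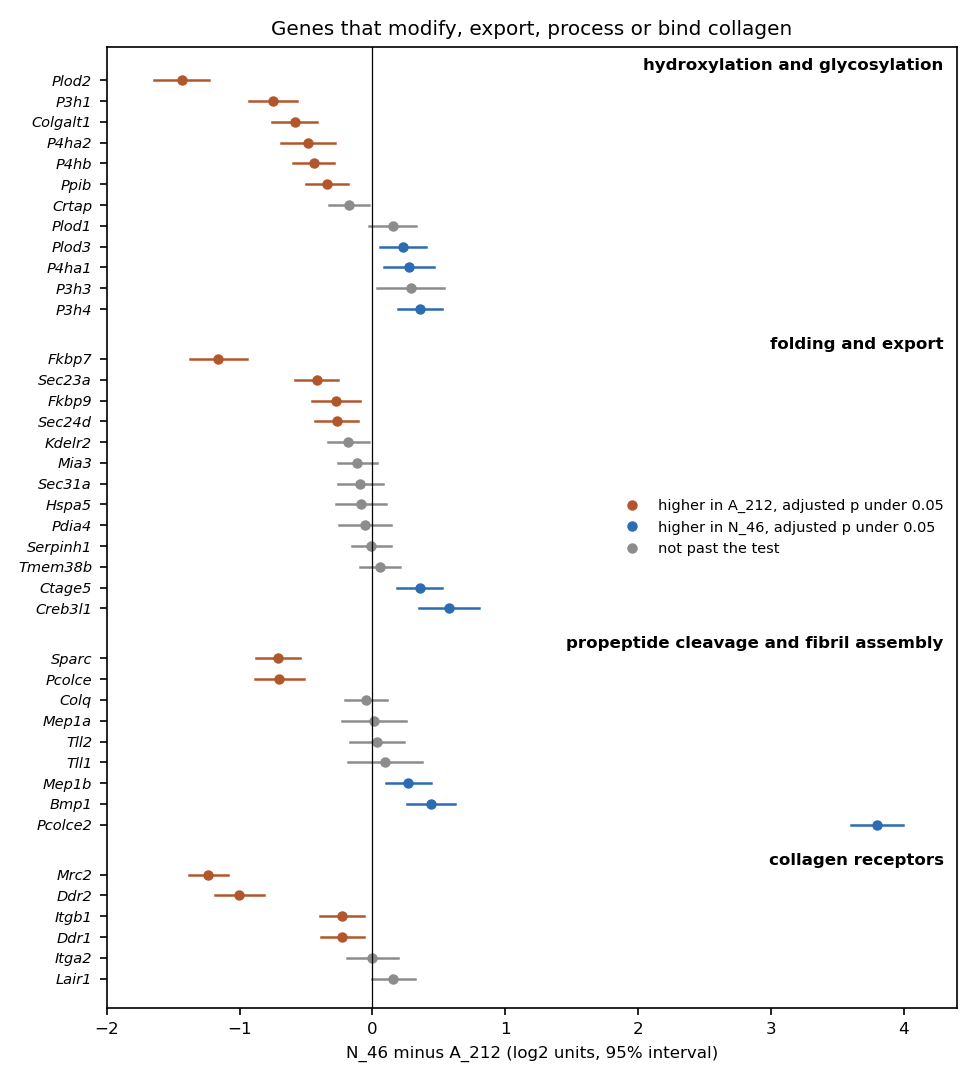
Difference between the lines (N_46 minus A_212, log2 units, points) with the 95% interval (lines) for 40 genes that modify, export, process or bind collagen, in 4 lists. Pcolce2 stands alone at 3.80, and the receptor genes called all lie left of 0.

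Marker lists of other cell kinds were read beside the collagen chains, against 18.3% of all genes called as higher in A_212 and 20.9% as higher in N_46. Of 12 fibroblast and mesenchymal markers measured, 6 were higher in A_212, 1 was higher in N_46 and 5 (Pdgfrb, Lum, Vim, S100a4 and Fap) did not pass. Their mean centred value was 0.45 to 0.58 on A_212 arrays and -0.56 to -0.49 on N_46 arrays, and their median difference was -0.31. Pdpn (-3.97), Thy1 (-3.41), Pdgfra (-3.00) and Dcn (-1.51) had the largest differences of the list, and the marker higher in N_46 was Twist2 (0.39). Markers of smooth muscle and pericytes (6 higher in A_212 and 1 in N_46, of 10) had means of 0.19 to 0.37 and -0.42 to -0.26, with a median difference of -0.37. Endothelial markers (3 and 2, of 10) had means of 0.04 to 0.29 and -0.18 to -0.11, and neuronal markers (2 and 1, of 12) means of 0.13 to 0.15 and -0.20 to -0.10. For both of these lists the median difference (0.05 and 0.07) and the mean differed in sign. The endothelial calls were Eng (-2.44), Flt1 (-0.92) and Tek (-0.70) toward A_212, and Vwf (0.45) and Cldn5 (0.32) toward N_46. The neuronal calls were Stmn2 (-3.09) and Tubb3 (-1.13) toward A_212 and Map2 (0.25) toward N_46, and the other 9 did not pass. Astrocyte markers (1 and 2, of 8) had means of -0.29 to -0.18 and 0.18 to 0.21 and a median difference of 0.04. Slc1a3 (2.47) and Gja1 (1.30) were higher in N_46, Fabp7 (-0.64) was higher in A_212, and the other 5, Gfap among them, did not pass. Neural progenitor markers (0 and 5, of 7) had means of -0.77 to -0.67 and 0.72 to 0.74 and a median difference of 0.50, with Sox2 at 7.24. The part of these differences in those of the collagen chains was not tested, and centred values do not show which markers were absent. As a sign of RNA quality, control probes at both ends of a transcript were compared, and the contrast of 3′ over 5′ signal changed from A_212 to N_46 by -0.001 (Gapdh) and 0.012 (Actb). Averaged over the 36 chains, arrays lay between -0.08 (A_212 replicate 1) and 0.07 (A_212 replicate 3) from the mean of their line.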

How the data were processed

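Total RNA of 6 plates was labelled from 5 µg and hybridised to Affymetrix mouse arrays of 22690 probe sets. The deposited log2 values were made with RMA, per the submitters' processing notes, and its version and the log base are not given in the sources used here. Each probe set's median over the 6 arrays is 0 within 1e-06, a centring that no source describes. Quantile normalisation in RMA hides differences in total RNA. Samples were grouped by the line in their titles. Probe sets with 1 annotated gene were averaged per gene, because centred values give no brightness to choose by, and the lines were compared with limma's lmFit and eBayes (two-sided). P-values were adjusted by Benjamini-Hochberg across 12393 genes and called under 0.05. No probe set was filtered out as dim.

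The collagen chains, classes, trimers, partner genes and markers were chosen with earlier results of these data known. All chains are given. Values on every array are given for chains called at 2-fold and for all chains of types I, III, V and VI and the Col4a1 and Col4a2 pair, and up to 4 called genes each way are named per partner list. Alternatives were plain probe sets, single probe sets, scaling of arrays to a common median or 75th percentile, a replicate block, weighting of arrays, robust or trended eBayes, each array left out, and treat. On simulated data of 12393 genes with 200 changed, limma recovered 70.1%, 97% and 100% of genes shifted by 0.5, 1 and 2, and 9 of its 187 calls were false. The simulated noise was independent between genes, and far fewer genes were changed than the 4853 called here. These rates therefore need not hold for the comparison of the lines. The number of arrays limits the precision. Promoter windows are from RefSeq. R 4.3.3, limma 3.58.1, Python 3.11.15, pandas 2.3.3 and matplotlib 3.10.9 were used.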

Additional observations from a re-analysis of the deposited data

How the results depend on the processing

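Of the 36 chains, 26 kept their direction and side of the threshold under every setting tried on them, other than treat and single probe sets. Of these, 19 were among the 21 called. The count of called chains was 16 with plain probe sets alone and 19 to 23 otherwise. Col2a1, Col6a2, Col12a1, Col16a1, Col17a1 and Col26a1 have no plain probe set, so that setting was not tried on them. Against a 2-fold bound (treat), 7 chains were called, 7 higher in A_212 and 0 in N_46. By class these were 2 fibrillar, 2 basement membrane, 0 FACIT and 3 other chains. Treat called 2 partner genes, 1 each way, and 406 of all genes (138 higher in N_46 and 268 in A_212).

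The 4 chains higher in N_46 became 2 with plain probe sets, and 2 to 5 with an array left out. Of these, 1 fibrillar chain was called with plain or single probe sets, with either scaling or with the replicate block, and 1 to 2 with an array left out. Of the other chains 1 was called with plain probe sets, and 1 to 2 with an array left out. FACIT calls were 0 with plain probe sets, array weights added 1 higher in N_46, and 0 to 1 were so called with an array left out. Partner genes higher in N_46 numbered 5 to 7 with an array left out.

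Deviations of same-numbered plates over all genes correlated at -0.03, -0.01 and 0.09, which cannot show whether these plates were handled together. The replicate block gave 20 called chains and 4834 called genes, and 10 of the chain pairs.

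Signs turned for differences near 0 that were not called. With arrays at the same median, Col9a3 was -0.0031 and Col17a1 -0.0047. With array weights, Col14a1 was 0.0451, Col15a1 0.0199 and Col4a5 minus Col4a6 -0.0177. With plain probe sets Col14a1 was 0.067. Single probe sets gave 0.10 for Col5a2, -0.0597 for Col9a3, 0.067 for Col14a1 and -0.0175 for Col19a1. Leaving out an array gave -0.0038 to 0.055 for Col9a3, -0.10 to 0.10 for Col14a1, -0.0192 to 0.19 for Col19a1, -0.14 to 0.10 for Col15a1, -0.0119 to 0.0666 for Col17a1, -0.0318 to 0.047 for Col4a5 minus Col4a6 and -0.0243 to 0.0046 for Serpinh1. The settings for chain pairs were chosen after the data were seen. The cause of these changes was not tested.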
